A study of Mus musculus with 74 samples.

Results

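The L4 dorsal root ganglion (DRG) was examined for 10 genes: Fkbp5, Tsc22d3, Sgk1, Zbtb16, Cdkn1a, Errfi1 and Ddit4, which glucocorticoids are known to induce, the metallothionein genes Mt1 and Mt2, and Nr3c1, the gene of the glucocorticoid receptor itself. They are 10 of 53379 genes counted. They were picked by name after results of these data were known, and the comparison that led to the choice is not recorded. It was taken to be whole DRG 1 day after spinal cord injury (SCI) against uninjured DRG. The values of that comparison are given below as a description and support nothing. Results of the sorted neurons described below may have been known too, so the choice cannot be taken as independent of those either.

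Corticosterone, the main glucocorticoid of mice, is released by the adrenal cortex after surgery and other stress. It binds the glucocorticoid receptor in the cytoplasm, where chaperones and immunophilins hold the receptor, and the receptor then enters the nucleus and binds DNA at glucocorticoid response elements. Metallothioneins are small cysteine-rich proteins that bind zinc and copper, and their genes are switched on by metals through the factor MTF1, which binds metal response elements, and also by glucocorticoids and oxidants.

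Transcripts were counted in 2 RNA-seq experiments. Whole L4 DRG came from wild-type C57BL/6 female mice of 10-12 weeks, 4 of them uninjured and 4 taken 1 day after a dorsal hemisection of the spinal cord at T9/10, with 1 library of ribosomal RNA-depleted total RNA per mouse. FACS-sorted neurons came from female Thy1YFP16 mice of 10-20 weeks, in which a Thy1 promoter drives YFP in large-diameter sensory neurons: L4 DRG were dissociated with papain and collagenase and YFP-positive cells were collected in wells of about 100 cells, 3 wells per mouse. There were 6 naive mice and 4 mice each at 1 day (1d) and 3 days (3d) after sciatic nerve crush (SNI) and after SCI, and the labels divide them into a set called FACS (naive mice 1 to 4 and replicates 1 and 2 of each injury group), and a set called FACS2018 (the remaining mice). The study's methods give isoflurane and buprenorphine to operated mice and describe no sham operation, so in both experiments injury, surgery and drugs cannot be told apart when an injured group is set against naive or uninjured mice. SNI and SCI mice were both operated on, but not alike. The methods give a thigh incision and nerve crush for SNI, and a laminectomy and a cut of the dorsal column for SCI. The extent of surgery and the kind of injury therefore cannot be told apart when SNI is set against SCI.

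Reads on genes numbered 21959030 to 44493319 per whole DRG library and 30518187 to 83599972 per mouse for sorted neurons. The spread between mice was far larger in the sorted neurons, with a common biological coefficient of variation of 1.193 against 0.1326 in whole DRG. Of the 66 wells, 20 gave at least 2% of their reads to a list of satellite glia and Schwann cell genes (3.349 to 14.48%), whereas the other 46 gave 0.34 to 1.606%. In these 20 glia-rich wells a list of neuronal genes took a median of 0.037% of reads, against 1.949% in the others, which goes against the label of sorted neurons. They were spread over all groups, with 6 of 18 wells in naive mice, 3 of 12 each in SNI 1d and SCI 1d, and 4 of 12 each in SNI 3d and SCI 3d. Results from sorted neurons are therefore given with and without them.

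The promoters of 8 members were in the RefSeq table of 250 bases before each start (build GRCm38.p6), with 17 windows in all. They were searched on both strands for cores of the metal response element, TGCACNC and TGCGCNC, and for the full palindrome of the glucocorticoid response element, AGAACA and TGTTCT separated by any 3 bases. In these windows Mt2 held 3 metal cores and Mt1 held 1, and a Sgk1 window held the palindrome. Only the windows were searched, so the counts hold for these annotated starts and not for whole promoters. The bases are printed 5′ to 3′ on the plus strand, which is the strand of all 3 genes, with the motifs in capitals, because these are the windows of members that hold the letters their regulators are known to bind. The Mt1 bases are chr8:94178839-94179078, the Mt2 bases are chr8:94172368-94172607 and the Sgk1 bases are chr10:21993676-21993740.
Mt1: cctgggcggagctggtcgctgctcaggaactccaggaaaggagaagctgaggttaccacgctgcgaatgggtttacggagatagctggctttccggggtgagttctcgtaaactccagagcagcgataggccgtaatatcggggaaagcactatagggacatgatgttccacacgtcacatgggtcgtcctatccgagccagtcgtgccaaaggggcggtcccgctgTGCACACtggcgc
Mt2: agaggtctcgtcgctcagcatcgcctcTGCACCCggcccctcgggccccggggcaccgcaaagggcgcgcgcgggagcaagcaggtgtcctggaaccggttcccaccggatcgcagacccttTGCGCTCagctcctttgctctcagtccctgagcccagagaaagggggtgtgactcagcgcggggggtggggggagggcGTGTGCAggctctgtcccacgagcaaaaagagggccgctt
Sgk1: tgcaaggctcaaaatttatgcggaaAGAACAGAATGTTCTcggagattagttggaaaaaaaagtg

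The Mt1 core lies 23 to 17 bases before the start. The Mt2 cores lie at 223 to 217, at 128 to 122 and, on the other strand, at 50 to 44 bases before the start. The Sgk1 palindrome lies 189 to 175 bases before 1 of the 6 Sgk1 starts in the table, inside an intron of a longer Sgk1 transcript. Of 32851 promoters in the table, 10.4% held TGCACNC, 12.5% held TGCGCNC, 1.26% held 3 or more cores and 0.00913% held the palindrome. Ddit4 had a TGCGCNC core 184 to 178 bases before its start, and no other member window held any of these letters. A match is a description of the letters and not a site in use.

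Mt2 (8:94172664-94173568, plus strand) and Mt1 (8:94179082-94180327, plus strand) are neighbours on chromosome 8, with 0 annotated genes between them over 5513 bases. The printed Mt1 bases lie in no annotated gene, whereas those of Mt2 lie in an exon of the antisense gene Gm45774. That gene also shares 432 of the 588 exon bases of Mt2, and the strand setting of the counting is not given in the sources used here. Whether reads on the shared bases were counted for Mt2, for Gm45774 or for neither is therefore not known. The levels of Mt2, also per kilobase, may miss such reads. The other members are at 17:28399094-28517527 (Fkbp5, minus), X:140539528-140600659 (Tsc22d3, minus), 10:21882184-21999903 (Sgk1, plus), 9:48654297-48836222 (Zbtb16, minus), 17:29090976-29100727 (Cdkn1a, plus), 4:150853919-150868892 (Errfi1, plus), 10:59949669-59951834 (Ddit4, minus) and 18:39410545-39519421 (Nr3c1, minus), all on GRCm38. Cdkn1a shares 273 exon bases with an unnamed transcript of the opposite strand, AC167363.2.

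In whole DRG 1 day after SCI, 9 members were higher and 1, the receptor gene Nr3c1, was lower. Levels are in CPM, reads scaled to a common library size after TMM normalization, and a gene was called at an adjusted p under 0.1 in edgeR's quasi-likelihood test over 17616 genes. By that rule 5 members were called higher (Zbtb16, Mt2, Fkbp5, Cdkn1a and Mt1) beside a background of 2.32% of all tested genes called, 1.38% of them higher. The 4 SCI libraries lay entirely above the 4 uninjured libraries for the same 5 members, against 4.92% of all genes, and entirely below them for Nr3c1, against 6.07% of all genes. The median log2 difference was 0.60 over the members and 0.01 over all tested genes. Since this contrast may have chosen the members, nothing is read from these counts.

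**Figure D1:**
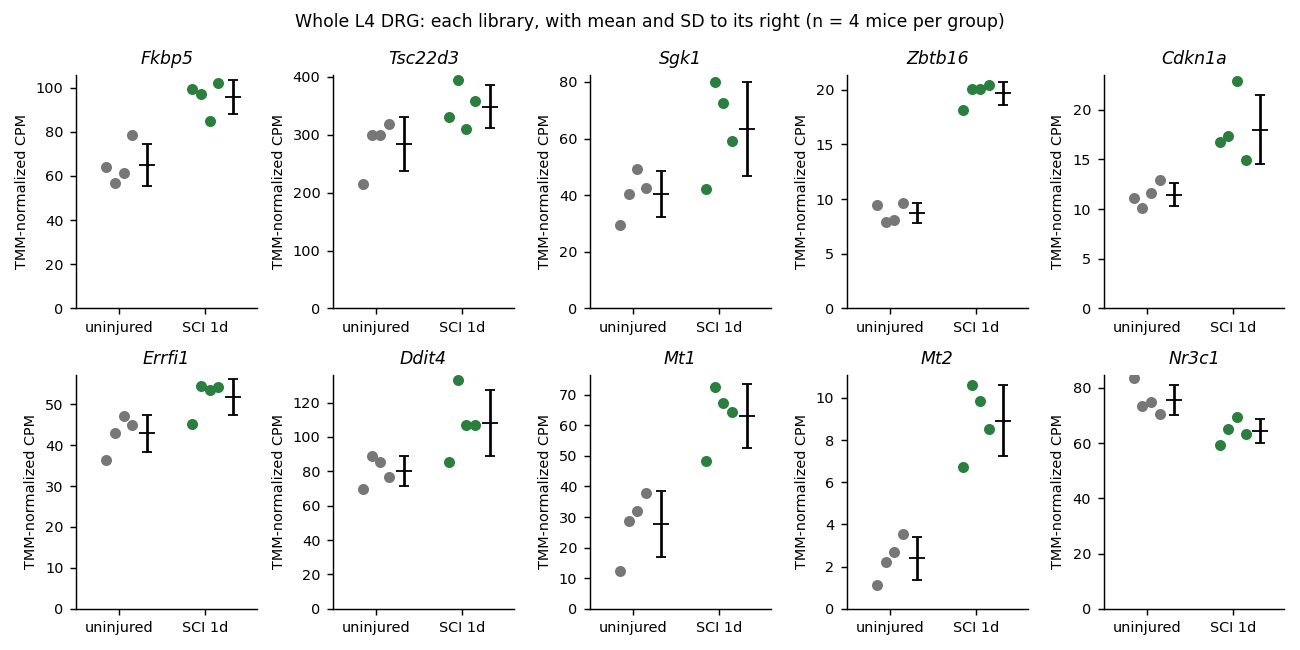
TMM-normalized CPM (vertical axes, each from 0) of the 10 members in each whole L4 DRG library, uninjured in grey and SCI 1d in green, with the mean and SD of 4 mice beside the points. The groups are apart for Fkbp5, Zbtb16, Cdkn1a, Mt1 and Mt2, with SCI higher, and for Nr3c1, with SCI lower.

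Zbtb16 encodes a zinc finger transcriptional repressor of the BTB family (PLZF). It was at 9.50, 7.88, 8.08 and 9.60 CPM in the uninjured libraries and at 18.1, 20.1, 20.1 and 20.4 CPM after SCI. All SCI libraries were far above every uninjured one, and the spread within each group was small (8.76 ± 0.911 and 19.7 ± 1.06 CPM, mean ± SD, n = 4 each). The difference was 1.17 ± 0.10 on the log2 scale (SE), or 2.25-fold, and it stayed between 1.12 and 1.22 when each library was left out in turn.

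Mt2 was the member with the largest difference. Its values were 1.12, 2.23, 2.67 and 3.54 CPM in uninjured DRG and 6.73, 10.6, 9.84 and 8.50 CPM after SCI. The lowest SCI library was above the highest uninjured one, and the means were 2.39 ± 1.01 and 8.92 ± 1.71 CPM, a log2 difference of 1.87 ± 0.27 or 3.65-fold. Its neighbour Mt1, which encodes the other widely expressed metallothionein, was at 12.4, 28.6, 32 and 37.9 CPM and at 48.3, 72.4, 67.3 and 64.2 CPM. The groups did not overlap either (27.7 ± 11 against 63.0 ± 10.4 CPM), and the log2 difference was 1.17 ± 0.27, or 2.26-fold. Uninjured replicate 1 was the lowest uninjured library for both metallothioneins and also for Sgk1, Tsc22d3, Ddit4 and Errfi1. Of these members, all but Tsc22d3 were also lowest in replicate 1 among the SCI libraries.

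Fkbp5 encodes FKBP51, an immunophilin of the receptor's chaperone complex that dampens hormone binding. It was at 64.0, 56.6, 61.3 and 78.4 CPM without injury and at 99.6, 97.1, 84.7 and 102 CPM after SCI. The ranges came close to each other but did not meet, and the log2 difference was 0.56 ± 0.10. Cdkn1a, which encodes the cell cycle inhibitor p21, was at 11.1, 10.1, 11.6 and 12.9 CPM and at 16.8, 17.4, 22.9 and 14.9 CPM, a log2 difference of 0.66 ± 0.14. Fkbp5 and Cdkn1a each kept their call in 4 of the 8 fits that left out 1 library, Mt1 in 3 of 8, and Zbtb16 and Mt2 in 8 of 8.

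The groups overlapped for the other glucocorticoid-induced members. Sgk1, the serum- and glucocorticoid-induced kinase, was at 29.5, 40.3, 49.4 and 42.5 CPM in uninjured DRG and at 42.2, 79.9, 72.7 and 59.0 CPM after SCI (log2 difference 0.65 ± 0.20). SCI replicate 1 alone lay within the uninjured range. Ddit4, which encodes the mTORC1 inhibitor REDD1, had the same low library, with 69.5, 89.1, 85.3 and 76.8 CPM against 85.7, 133, 107 and 107 CPM (0.43 ± 0.13). Tsc22d3 encodes GILZ, a leucine zipper protein with anti-inflammatory actions, and was at 215, 300, 300 and 319 CPM against 330, 395, 310 and 359 CPM (0.29 ± 0.12). Errfi1 encodes MIG6, an inhibitor of the EGF receptor, and was at 36.5, 42.9, 47.2 and 44.9 CPM against 45.3, 54.4, 53.5 and 54.2 CPM (0.27 ± 0.09). None of these 4 was called by edgeR. DESeq2, which called 5.27% of all genes, also called Sgk1 and Ddit4 (adjusted p = 0.041 and 0.053), as did edgeR without the filter on low counts or with the replicate block, where Cdkn1a was not called (adjusted p = 0.13).

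Nr3c1 was at 83.5, 73.6, 74.9 and 70.6 CPM in uninjured DRG and at 59.2, 65.1, 69.6 and 63.4 CPM after SCI. Every SCI library was below every uninjured one, but by little, with a log2 difference of -0.23 ± 0.08 that was not called.

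**Figure D2:**
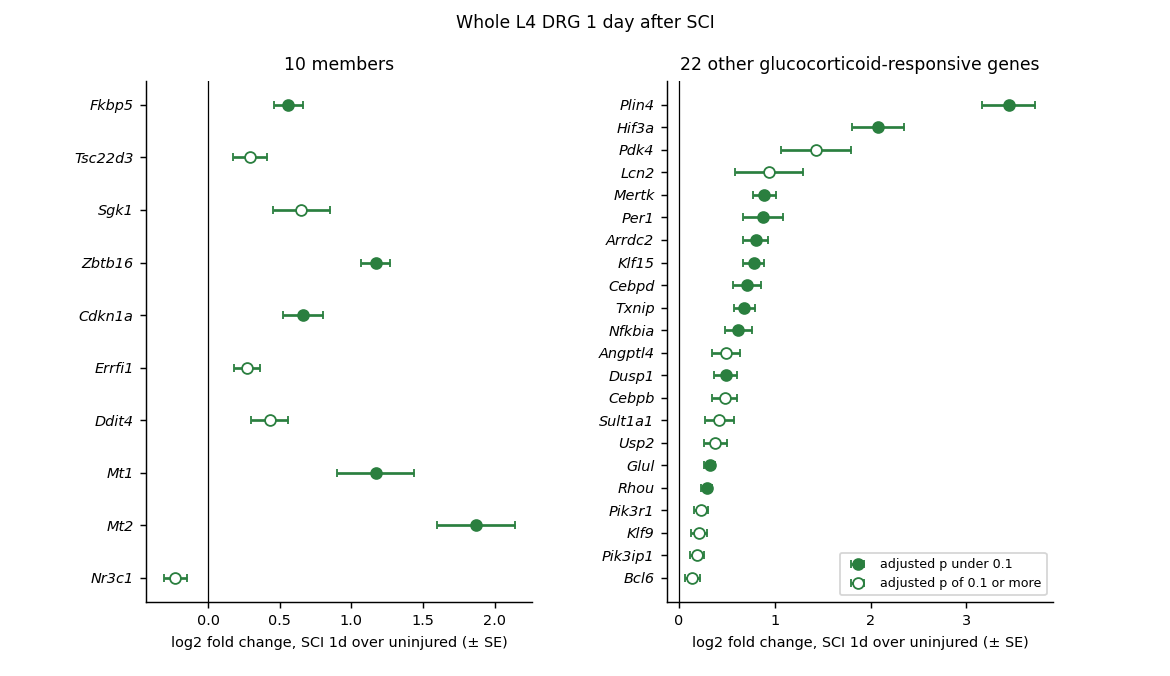
Log2 difference in whole DRG (SCI 1d minus uninjured, n = 4 mice each, horizontal axis) with its SE for the members and for the 22 other glucocorticoid targets, called genes marked apart from the rest. The members run from -0.23 for Nr3c1 to 1.87 for Mt2, and the other targets from 0.14 to 3.44 for Plin4.

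Per kilobase of exon, the order of the levels differed between uninjured and SCI DRG. By median CPM per kilobase in uninjured DRG, Tsc22d3 (69.2) and Ddit4 (46.2) led, followed by Mt1 (24.3), Errfi1 (12.3), Nr3c1 (9.66), Sgk1 (8.44), Fkbp5 (6.62), Mt2 (4.16), Cdkn1a (3.19) and Zbtb16 (1.66). Neighbours in that order overlapped over the 4 libraries, except Ddit4 with Mt1 and Cdkn1a with Zbtb16. After SCI, Mt2 was at 15.6 CPM per kilobase and stood between Mt1 (52.7) and Errfi1 (15), with a range that overlapped that of Errfi1. Zbtb16 was last in both groups.

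Other genes that glucocorticoids induce were taken from a list of 22, chosen like the members with results of these data known. All 22 had a positive log2 difference after SCI, and their median was 0.56 against 0.01 over all genes. Of them 12 were called higher and none lower, beside 1.38% of all tested genes called higher and 0.937% lower. Because of how the list was chosen, these counts are a description and support nothing. Leaving out uninjured replicate 3 or SCI replicate 2 brought the count of called genes to 6, and leaving out uninjured replicate 2 or 4 brought it to 7. Plin4, which coats lipid droplets, was at 3.29 ± 1.59 CPM in uninjured DRG and 35.6 ± 5.94 CPM after SCI (log2 difference 3.44 ± 0.28, adjusted p = 0.00053). Hif3a, a member of the hypoxia-inducible factor family, was at 1.21 ± 0.526 and 5.26 ± 1.19 CPM (2.08 ± 0.27, adjusted p = 0.0089). Mertk, a receptor for the uptake of dying cells, was higher by 0.89 ± 0.12 and Klf15, a transcription factor of metabolic genes, by 0.78 ± 0.11 on the log2 scale (adjusted p = 0.0089 and 0.014). The other called genes of the list were Arrdc2, Per1, Nfkbia, Dusp1, Glul, Txnip, Rhou and Cebpd.

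Genes of the receptor's own machinery were mostly not called. Of 12 tested chaperone, hormone-converting enzyme and coregulator genes, 1 was called higher, Hsd11b1, which makes the active hormone from its inert form (0.532 ± 0.0987 to 1.14 ± 0.289 CPM, log2 difference 1.09 ± 0.25, adjusted p = 0.071), and the median was -0.03. None of 12 genes of metal handling was called. Among them, Mt3, the metallothionein of the nervous system, differed by 0.19 ± 0.19 and the metal-sensing factor gene Mtf1 by -0.09 on the log2 scale. None of 10 p53 targets was called, and their median was 0.13. The called member Cdkn1a, also a textbook p53 target, was not among these 10. Of 8 hypoxia targets, 2 were called higher, Pfkfb3 (0.45, adjusted p = 0.048) and the glucose transporter gene Slc2a1 (0.32, adjusted p = 0.060), and the median was 0.12.

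Among markers of cell types, those of blood cells had the largest median differences between SCI and uninjured whole DRG. Of 5 hemoglobin and other red blood cell genes, 4 were called higher (median log2 difference 1.62), and their summed level was 13.4 to 21.3 CPM in uninjured DRG and 20.7 to 88.6 CPM after SCI. All 4 tested neutrophil genes had positive log2 differences (0.54 to 0.98, median 0.79), with a summed median of 10.4 CPM in uninjured DRG and 20.8 CPM after SCI, and none was called. The summed ranges overlapped for red blood cells and likewise for markers of satellite glia (3800 to 4260 and 3550 to 4030 CPM), Schwann cells (4200 to 4460 and 3680 to 4630 CPM), neurons (14000 to 16700 and 13700 to 14400 CPM), macrophages (33 to 45.3 and 38.9 to 43.3 CPM), neutrophils (8.29 to 16.7 and 5.58 to 32.7 CPM), endothelium (107 to 121 and 104 to 143 CPM) and fibroblasts (406 to 703 and 384 to 684 CPM). In these lists Glul (satellite glia, also a glucocorticoid target) was called higher, and Cx3cr1 (macrophages) and Lum (fibroblasts) lower. No neuronal, Schwann cell, endothelial or neutrophil marker was called. Of 4 immediate-early genes, which rise with stimulation or handling of cells, none was called, at a summed 38.3 to 50.1 and 43.8 to 53.9 CPM. The part of these shifts in the members' differences was not tested, and in whole tissue fewer cells of a type and less RNA per cell cannot be told apart.

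The genes whose pattern over the 8 whole DRG libraries was most like that of a member were found by the root mean square difference of mean-centred log2 CPM. For Mt2 they were Hif3a (0.166), Dpep1 (0.343), which encodes a membrane dipeptidase, and Gfap (0.401), the intermediate filament of reactive glia. For Fkbp5 they were Doc2b (0.096), E030037K01Rik (0.106) and Ppp1r14a (0.112). These had low levels, 0.783, 0.3 and 0.595 CPM in uninjured DRG and 1.07, 0.457 and 0.833 CPM after SCI, from mean log2 CPM. Fkbp5 itself was at 65.1 and 95.8 CPM. Likeness of pattern is a description with no test. The 3 genes near Mt2 differed by 2.08, 2.09 and 1.34 between SCI and uninjured DRG on the log2 scale, and those near Fkbp5 by 0.48, 0.72 and 0.52.

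In sorted neurons, wells of a mouse were summed and the injured groups were compared with naive mice. EdgeR called no member in either SNI group, beside 0.519% (1d) and 0.442% (3d) of 23507 tested genes, and none in either SCI group, beside 0.0468% (1d) and 0.051% (3d). At an unadjusted p under 0.05 there were 3 and 4 members after SNI, beside 14.0% and 13.2% of all genes, and 2 and 1 after SCI, beside 11.2% and 9.56%. DESeq2 called 3 and 2 members after SNI, beside 6.05% and 8.71% of all genes, and 2 and 1 after SCI, beside 4.56% and 4.65%. At 1d, 9 members had a positive log2 difference after SCI and 4 after SNI, with medians of 0.71 and -0.33 beside 0.15 over all genes in both. At 3d, 9 members were positive after SCI and 2 after SNI, with medians of 0.24 and -0.73 beside 0.01 and -0.01. The shares of all genes with a positive sign, or with groups entirely apart, were not computed in sorted neurons. In SCI 1d, Fkbp5, Tsc22d3, Sgk1, Cdkn1a, Ddit4 and Mt1 were positive in FACS and negative in FACS2018. Within FACS, only Zbtb16 and Errfi1 were positive in SCI 3d (0.354 and 0.902). With the glia-rich wells left out, Fkbp5, Tsc22d3, Ddit4, Mt1 and Nr3c1 were negative in SCI 3d, and Ddit4 and Nr3c1 in SCI 1d.

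**Figure D3:**
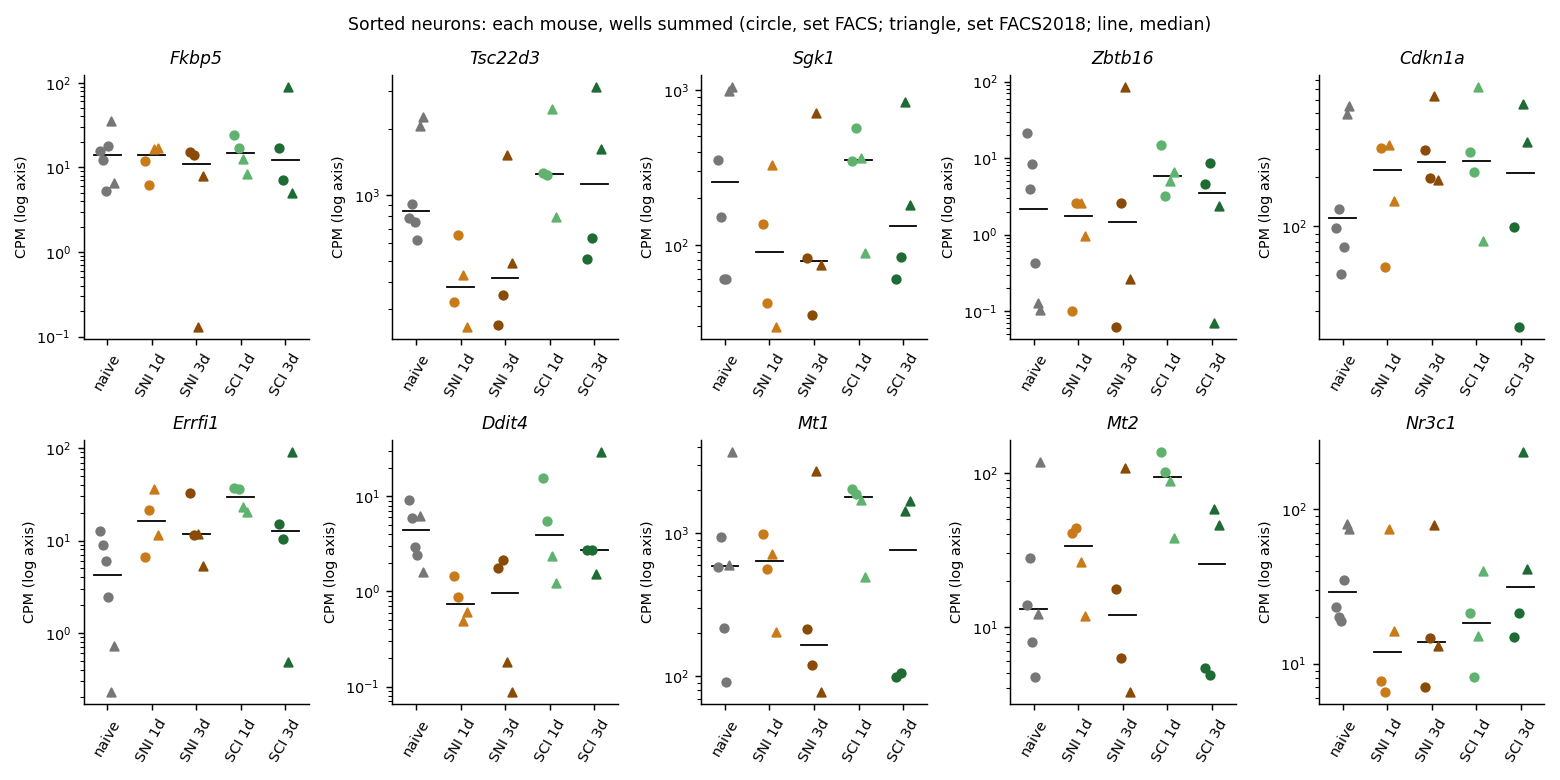
TMM-normalized CPM (log axis) of the 10 members in sorted neurons, 1 point per mouse (3 wells summed), for 6 naive mice and 4 mice at each day after SNI and after SCI. Tsc22d3 in SNI 1d lies at 249 to 656 CPM, below the 796 to 2470 CPM of SCI 1d, whereas most other groups overlap.

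Tsc22d3 was the member with the clearest difference between the kinds of injury. Its level was 619, 848 and 2260 CPM (lowest, median and highest) in naive mice, 324, 656, 432 and 249 CPM in SNI 1d and 1260, 1240, 2470 and 796 CPM in SCI 1d. Every SNI 1d mouse lay below every SCI 1d mouse, while SNI 1d and naive mice overlapped only through SNI replicate 2 and 1 naive mouse. Against naive mice the log2 difference was -1.22 ± 0.31 in SNI 1d (adjusted p = 0.12), -1.08 ± 0.30 in SNI 3d (adjusted p = 0.16), 0.48 ± 0.29 in SCI 1d (adjusted p = 0.59) and 0.14 ± 0.29 in SCI 3d (adjusted p = 0.93), none of them past the threshold.

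The direct comparison of SNI 1d with SCI 1d gave -1.70 ± 0.33 for Tsc22d3 (unadjusted p = 5.4e-05, adjusted p = 0.21). In that comparison 0.0% of genes were called by edgeR, with 2380 at an unadjusted p under 0.05 and 1081 (4.6%) called by DESeq2, which called Tsc22d3 at an adjusted p of 0.0011. The difference had the same sign in both sets of mice, with -1.43 in FACS and -2.09 in FACS2018. Against naive mice, SNI 1d differed by -0.719 in FACS and -2.72 in FACS2018, and SNI 3d by -1.35 and -1.32. At 3d the direct difference was -1.22 ± 0.33 (adjusted p = 0.61), and edgeR called 0.0% of genes, with 1916 at an unadjusted p under 0.05 and 853 (3.63%) called by DESeq2. Without SNI 1d replicate 2, Tsc22d3 was called against naive mice (adjusted p = 0.049) and against SCI 1d (adjusted p = 0.091).

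Without the glia-rich wells, Tsc22d3 was called lower after SNI. The remaining wells came from 20 mice, and with their CPM scaled to library totals the values per mouse were 599, 750 and 893 CPM (lowest, median and highest) in 6 naive mice, 422, 453, 286 and 284 CPM in SNI 1d, 278, 416 and 504 CPM in the 3 SNI 3d mice left, 806, 919, 979 and 830 CPM in SCI 1d and 552, 718 and 781 CPM in the 3 SCI 3d mice left. Both SNI groups lay entirely below naive mice and below SCI mice of the same day. Tsc22d3 fell by 1.12 ± 0.18 on the log2 scale in SNI 1d (adjusted p = 0.0074) and by 1.04 ± 0.20 in SNI 3d (adjusted p = 0.020), while the median of all genes was 0.35 and 0.33 and 6.47% and 4.99% of genes were called. SNI 1d differed from SCI 1d by -1.24 ± 0.19 (adjusted p = 0.016, 0.796% of genes called). The direct difference at 3d was -0.80 ± 0.22 (adjusted p = 0.62). Within FACS and FACS2018 the SNI 1d difference from naive mice was -0.818 and -1.26, and that from SCI 1d -0.974 and -1.66.

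**Figure D4:**
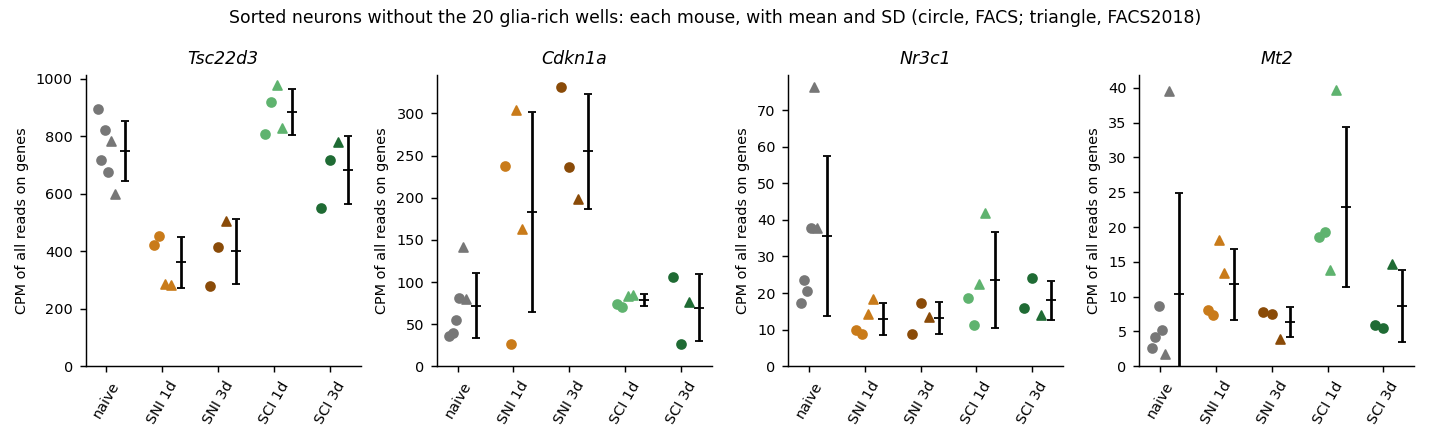
CPM of library totals in sorted neurons after the 20 glia-rich wells were left out, 1 point per mouse with the mean and SD, for 6 naive mice, 4 mice each at 1d and 3 each at 3d. Tsc22d3 lies at 278 to 504 CPM in the SNI groups and at 552 to 979 CPM in all others.

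Cdkn1a and Nr3c1 were also called in these wells. Cdkn1a was at 35.7, 67.7 and 141 CPM (lowest, median and highest) in naive mice, at 238, 26.9, 304 and 163 CPM in SNI 1d and at 331, 236 and 199 CPM in SNI 3d. SNI 1d replicate 2 was below every naive mouse and the other SNI mice were above all of them. The log2 difference was 1.47 ± 0.44 in SNI 1d (adjusted p = 0.084) and 1.99 ± 0.48 in SNI 3d (adjusted p = 0.048). After SCI, Cdkn1a was at 70.1 to 84.8 CPM at 1d and 27.0 to 106 CPM at 3d, with differences from naive mice of 0.25 ± 0.45 and 0.12 ± 0.49 that were not called (adjusted p = 0.86 and 1.0).

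Nr3c1 was at 17.2, 30.8 and 76.3 CPM in naive mice and at 9.99, 8.73, 14.3 and 18.5 CPM in SNI 1d without the glia-rich wells. The ranges overlapped at SNI replicate 4, and the log2 difference was -1.26 ± 0.37 (adjusted p = 0.078), with -1.30 in FACS and -1.69 in FACS2018. In SNI 3d it was -1.21 ± 0.41 (adjusted p = 0.12) and in SCI 1d -0.46 ± 0.36 (adjusted p = 0.56). With all wells, the differences of Nr3c1 and of Cdkn1a from naive mice passed the threshold in no comparison.

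For the metallothioneins, SCI 1d gave the largest of the 4 differences from naive mice. Mt2 was at 4.75, 13.0 and 118 CPM (lowest, median and highest) in naive mice and at 137, 101, 88.0 and 38.0 CPM in SCI 1d. The SCI 1d mice lay above all naive mice but replicate 6, in which 2 of 3 wells were glia-rich. The log2 difference was 2.32 ± 0.62, or 4.98-fold (unadjusted p = 0.0014, adjusted p = 0.26 in edgeR and 0.017 in DESeq2). It was 3.35 in FACS and 0.589 in FACS2018. In SNI 1d, Mt2 was at 40.7, 44.0, 26.5 and 11.7 CPM and in SCI 3d at 5.44, 4.86, 57.9 and 45.9 CPM, with differences from naive mice of 0.82 ± 0.62 and 0.24 ± 0.62 (adjusted p = 0.60 and 0.96).

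Mt1 had a like pattern with more spread. It was at 91.5 to 3690 CPM in naive mice and at 2030, 1880, 1700 and 493 CPM in SCI 1d, a difference of 1.30 ± 0.66 (adjusted p = 0.47), which was 2.59 in FACS and -0.705 in FACS2018. Without the glia-rich wells Mt2 was at 1.70, 4.71 and 39.5 CPM in naive mice and 13.9 to 39.7 CPM in SCI 1d, with a difference of 1.87 ± 0.44 (adjusted p = 0.16), and that of Mt1 was 0.70 ± 0.31 (adjusted p = 0.28). Neither was called.

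Errfi1 was higher in all 4 SCI 1d mice (37.4, 36.1, 22.9 and 20.5 CPM) than in all 6 naive mice (0.23 to 12.7 CPM). Naive replicates 5 and 6, whose wells were mostly glia-rich, held 0.227 and 0.728 CPM. The log2 difference was 2.91 ± 0.94 (unadjusted p = 0.0059, adjusted p = 0.33 in edgeR and 0.031 in DESeq2), with 2.41 in FACS and 4.55 in FACS2018. Without the glia-rich wells the groups were still apart (13.0 to 34.8 against 0.124 to 11.8 CPM), with 2.42 ± 0.58 (adjusted p = 0.16). In SNI 1d, SNI 3d and SCI 3d the differences from naive mice were 2.5 ± 0.95, 2.25 ± 0.97 and 2.97 ± 0.96 with all wells, and none was called by edgeR. SCI 3d replicate 4 held 91.3 CPM, against 0.48 to 15.1 CPM in the other SCI 3d mice, and leaving out 1 mouse at a time moved that difference over 0.52 to 3.47.

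Ddit4 was low in sorted neurons. It was at 1.59 to 9.18 CPM in naive mice and at 1.45, 0.87, 0.49 and 0.60 CPM in SNI 1d. All SNI 1d mice were below all naive mice, with a log2 difference of -2.54 ± 1.05 (adjusted p = 0.29 in edgeR and 0.070 in DESeq2). The difference was -1.61 in FACS and -1.83 in FACS2018, and SNI 3d differed by -2.47 ± 1.05 (adjusted p = 0.32 in edgeR and 0.063 in DESeq2). With the glia-rich wells left out the ranges met (0.388 to 11.4 CPM in naive and 0.0355 to 1.91 CPM in SNI 1d), with -2.31 ± 0.97 (adjusted p = 0.18). The direct differences of SNI from SCI with all wells were -2.93 ± 1.11 at 1d and -3.34 ± 1.14 at 3d (adjusted p = 0.45 and 0.61 in edgeR). DESeq2 called both (adjusted p = 0.057 and 0.025), beside 4.6% and 3.63% of all genes. SCI 3d replicate 4 held 29.3 CPM, against 1.52 to 2.75 CPM in the other SCI 3d mice. Leaving out 1 mouse at a time moved the direct 3d difference over -3.91 to -1.5. Without the glia-rich wells the direct differences were -2.08 ± 0.98 at 1d and -1.04 ± 1.09 at 3d (adjusted p = 0.36 and 0.87 in edgeR).

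For the 3 remaining members no difference from naive mice was called, with or without the glia-rich wells. Fkbp5 was at 5.24 to 35.6 CPM in naive mice and 8.45 to 24.2 CPM in SCI 1d, a difference of 0.29 ± 0.84 (adjusted p = 0.98). Zbtb16 was at 0.10 to 21.1 CPM in naive and 3.23 to 14.8 CPM in SCI 1d mice (0.90 ± 1.34, adjusted p = 0.89). It lay below SCI 1d in every SNI 1d mouse (0.10 to 2.60 CPM), with a direct difference of -2.29 ± 1.55 that was not called (adjusted p = 0.65). Sgk1 was at 60.2 to 1050 CPM in naive mice and 88.6 to 566 CPM in SCI 1d (0.52 ± 0.53, adjusted p = 0.80). Without the glia-rich wells it was at 2.11 to 95.2 and 92.5 to 270 CPM (1.34 ± 0.50, unadjusted p = 0.017, adjusted p = 0.23). With all wells its SNI differences were -1.09 ± 0.55 at 1d and -1.33 ± 0.56 at 3d (adjusted p = 0.39 and 0.32). Once the glia-rich wells were left out, these 2 differences changed sign, to 0.73 ± 0.51 and 0.10 ± 0.56 (adjusted p = 0.44 and 0.99), and Fkbp5 and Zbtb16 in SCI 1d were at 0.01 ± 0.47 and 1.5 ± 1.09 (adjusted p = 1.0 and 0.53).

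Of 21 tested genes on the list of other glucocorticoid targets, 1 was called in SNI 1d, SCI 1d and SCI 3d each and none in SNI 3d. It was Plin4 each time. In naive mice Plin4 had 0 reads in replicates 1 to 4 and 0.0252 and 0.078 CPM in the others, and in SCI 1d it was at 52.1, 43.7, 116 and 4.42 CPM (adjusted p = 0.00015). All SCI 1d mice were above all naive, SNI 1d (0 to 0.402 CPM) and SNI 3d mice (0 to 0.0259 CPM). In SCI 3d, Plin4 was at 0.444, 0.0697, 6.88 and 0.36 CPM (adjusted p = 0.041), and in SNI 1d its adjusted p was 0.094 at these near-zero levels. When the glia-rich wells were left out, Plin4 was called in SNI 1d (adjusted p = 0.099) but not in SCI 1d (log2 difference 9.26 ± 1.7, adjusted p = 0.10) or SCI 3d (adjusted p = 0.33). Since most naive mice had no Plin4 reads, its fitted difference depends on the prior count and is no bound. Among p53 targets, Gadd45a, a stress and DNA damage gene, was at 31.1 ± 29.7 CPM in naive mice and was called in SNI 1d (265 ± 164 CPM, adjusted p = 0.080) and SNI 3d (222 ± 146 CPM, adjusted p = 0.096). Slc2a1 was called in SNI 3d (26.7 ± 19.5 to 112 ± 115 CPM, adjusted p = 0.053). In the wells that were not glia-rich, Gadd45a was called in both SNI groups (adjusted p = 0.036 and 0.062), as was Slc2a1 (adjusted p = 0.013 and 0.016). No gene of the receptor machinery or metal handling lists was called in these comparisons.

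The level of several members went with the make-up of the well. In the 20 glia-rich wells the median was 3190 CPM for Mt1, 123 for Mt2, 526 for Cdkn1a, 640 for Sgk1 and 2160 for Tsc22d3, against 168, 6.80, 80.0, 67.1 and 666 CPM in the other 46. In the 12 mice that had both kinds of well, Mt1, Mt2 and Cdkn1a were higher in the glia-rich wells of 12, Sgk1 of 11 and Tsc22d3 of 10, by median log2 differences of 4.43, 4.48, 3.47, 2.91 and 1.73. Fkbp5 and Zbtb16 went the other way, being lower there in 10 of 12 mice each. Nr3c1 was lower there in 8 of 12, but in FACS2018 its median was higher in the glia-rich wells (69.0 against 22.1 CPM). Errfi1 was higher there in 8 of 12. Its median in the glia-rich wells was 105 CPM in FACS and 0.221 CPM in FACS2018, against 10.9 and 11.2 CPM in the others. Fkbp5 had a median of 0.152 CPM with 6 of 20 wells at 0 reads, against 12.5 CPM in the other wells. Wells of a mouse are technical repeats and the kinds of well were defined from their reads, so these values are a description with no test.

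**Figure D5:**
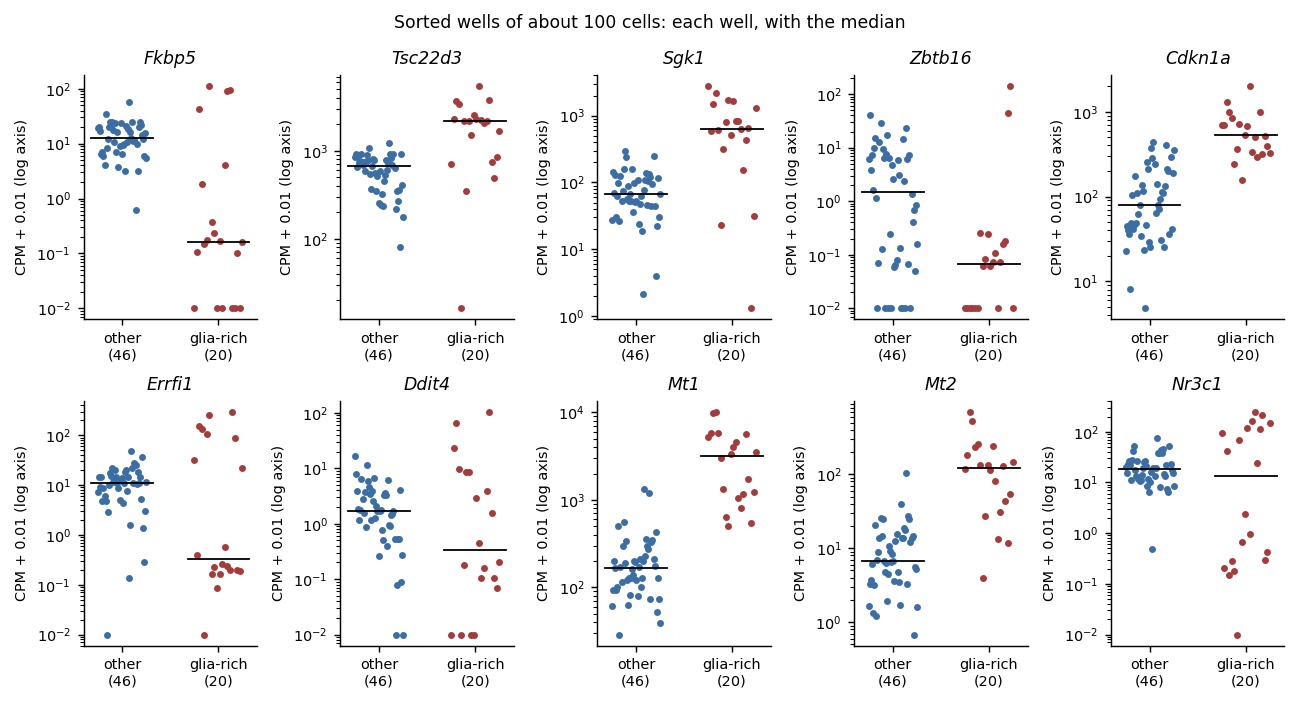
CPM of library totals plus 0.01 (log axis) of the 10 members in the 20 glia-rich wells and the other 46 wells of sorted neurons, 1 point per well. Mt1, Mt2, Cdkn1a, Sgk1 and Tsc22d3 have higher medians in the glia-rich wells, and Fkbp5 a lower one (0.152 against 12.5 CPM).

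Several mice that stood out had mostly glia-rich wells, but not every member in them followed the pattern of the wells above. All 3 wells of SNI 3d replicate 3 and of SCI 3d replicate 3 were glia-rich, and in naive replicates 5 and 6 it was 2 of 3. SNI 3d replicate 3 held the highest Sgk1 (705 CPM), Zbtb16 (86.1 CPM), Mt1 (2700 CPM), Mt2 (107 CPM) and Nr3c1 (78.6 CPM) of its group. The high Zbtb16 went the other way from the 10 of 12 mice in which it was lower in glia-rich wells. Without SNI 3d replicate 3 Tsc22d3 was called in SNI 3d (adjusted p = 0.080).

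Set against uninjured whole DRG, the naive sorted neurons differed past the threshold in 7 members, 5 higher and 2 lower. Called higher were Mt1 (log2 difference 6.15 ± 1.20), Cdkn1a (5.28 ± 0.94), Mt2 (4.64 ± 1.15), Sgk1 (4.39 ± 1.03) and Tsc22d3 (3.00 ± 0.54), where 32.1% of 18205 genes were called, 17.7% higher and 14.4% lower. Called lower were Ddit4 (-3.33 ± 0.52) and Errfi1 (-2.36 ± 0.86). Fkbp5 was at -1.25 ± 0.55 (adjusted p = 0.12), and Zbtb16 and Nr3c1 were at 0.07 ± 1.26 and 0.05 ± 0.55, neither called. The median of all genes was 0.25, and with library totals as the only scaling it was -0.56, the split of called genes turned from 3226 higher and 2616 lower to 1917 and 4260, Fkbp5 (-2.18) and Nr3c1 (-1.03 ± 0.40, adjusted p = 0.08) were called lower, and Zbtb16 was at -0.49. Without the glia-rich wells Sgk1 was not called (1.36 ± 0.69, adjusted p = 0.17), and the other called members were at 4.56 (Mt1), 3.44 (Cdkn1a), 2.98 (Mt2), 2.11 (Tsc22d3), -3.67 (Ddit4) and -2.34 (Errfi1). Strain, dissociation, sorting and library kit all changed with the group, so they cannot be told apart here.

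Within the naive sorted neurons the order per kilobase was led by Mt1, with a median of 477 CPM per kilobase over the 6 mice and a range of 73.4 to 2960. Tsc22d3 followed at 195, then Sgk1 (51.6), Cdkn1a (31.6) and Mt2 (22.1), and the ranges of neighbours in that order overlapped. Nr3c1 (3.78), Ddit4 (2.53), Fkbp5 (1.48), Errfi1 (1.19) and Zbtb16 (0.411) made up the lower part. Without the glia-rich wells Tsc22d3 (173, range 138 to 206) came before Mt1 (159, range 64.8 to 1060), then Cdkn1a (19), Sgk1 (14.5), Mt2 (8.02) and Nr3c1 (4.01), with Zbtb16 last at 0.485. The ranges of Tsc22d3 and Mt1 overlapped. The summed level of 4 immediate-early genes in naive sorted neurons was 191 to 5050 CPM, against 38.3 to 50.1 CPM in uninjured whole DRG, and its part in these levels was not tested.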

How the data were processed

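The members and all gene lists were chosen with earlier results of these data known. Per the labels and methods, the authors trimmed reads with cutadapt, aligned them to GRCm38 with STAR 2.5.3a and counted reads per gene with HTSeq 0.6.1. As deposited by the authors, the counts are whole reads per gene without normalization, for 53379 genes in 74 libraries. The 5 lines per library that name no gene (33.1 to 66.9% of all reads listed) were left out. Deposited tables of the authors' own comparisons hold fold changes and p-values and were not used, nor were 123 columns of normalized values that name no sample of this series. Genes were named by GENCODE M21 (53274 identifiers found), promoter sequences are RefSeq's.

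Counts were tested with the quasi-likelihood F-test of edgeR 4.0.16 (R 4.3.3, limma 3.58.1) after TMM normalization, with Benjamini-Hochberg adjustment over all genes tested and a threshold of 0.1. Whole DRG genes needed a mean count of 10. Sorted wells were summed per mouse, genes needed 20 reads in 1 mouse, and the model over all 22 mice held 2 RUVr factors (centred residuals). The well sums follow the labels, which mark the wells of a mouse. CPM means are TMM-normalized, and differences within sets use log2(CPM + 0.5). Level values per kilobase use summed exon length. Scripts were tested on simulated data. Alternatives were DESeq2 1.42.0, its size factors, thresholds, filters, other RUVr settings, a set term, a replicate block, leaving out each mouse, and leaving out wells with at least 2% glial reads.

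All members are named. Of each other list the text gives its counts, at most the 4 called genes with the smallest adjusted p in whole DRG, genes of a list called elsewhere, and for Fkbp5 and Mt2 the 3 genes nearest in pattern. Remaining called targets and Mt3 and Mtf1 were named after their values were seen. Replicate numbers were checked for pairing by the correlation of same-numbered libraries' deviations from their group means. In whole DRG these ran from -0.16 to 0.26, and 1 of 4 was above 0.1. In sorted neurons 21 of 48 same-numbered pairs were above 0.1 (median 0.10), as were 9 of 48 with different numbers (median 0.03). Since not every same-numbered pair was above 0.1, the numbers were not taken as pairing the samples. That rule is strict and cannot show that same-numbered libraries share no variation. In whole DRG the replicate block took the SE of Sgk1 from 0.20 to 0.10 and that of Mt1 from 0.27 to 0.18. For Zbtb16 it went from 0.10 to 0.11 and for Nr3c1 from 0.08 to 0.09. The labels do not state separate cultures or cages, so p-values measure the spread between these mice.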

Additional observations from a re-analysis of the deposited data

Results flagged for a closer look

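For each member and each of the 7 groups, the gap of the highest or lowest mouse to its nearest neighbour was divided by the group's range and set against Dixon's critical value. Of 70 groups, 15 passed. The critical value lets about 1 in 20 pass only for independent values with a normal spread. These were untransformed CPM of members measured in the same mice, and the share over all genes was not computed. The count is therefore not set against chance.

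SNI 3d replicate 3, all of whose wells were glia-rich, stood apart as the highest mouse of its group for Sgk1 (705 CPM against 35.3 to 82.0 in the others, ratio 0.93), Zbtb16 (86.1 against 0.0618 to 2.62, ratio 0.97), Mt1 (2700 against 77.6 to 213, ratio 0.948), Mt2 (107 against 3.76 to 17.7, ratio 0.865) and Nr3c1 (78.6 against 7.07 to 14.6, ratio 0.894). SCI 3d replicate 3, also with glia-rich wells alone, was highest for Fkbp5 (90.1 CPM against 4.96 to 17.1, ratio 0.857), Sgk1 (834 against 60.1 to 182, ratio 0.843) and Nr3c1 (236 against 14.8 to 41.3, ratio 0.88). Naive replicate 6, with 2 glia-rich wells, was highest for Mt1 (3690 CPM against 91.5 to 947, ratio 0.762) and Mt2 (118 against 4.75 to 28.0, ratio 0.795).

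SCI 3d replicate 4, with 1 glia-rich well, was highest for Errfi1 (91.3 CPM against 0.483 to 15.1, ratio 0.839) and Ddit4 (29.3 against 1.52 to 2.75, ratio 0.956). SNI 1d replicate 3, also with 1, was highest for Nr3c1 (74.3 CPM against 6.51 to 16.2, ratio 0.857). In whole DRG, SCI replicate 1 was the lowest SCI library for Zbtb16 (18.1 CPM against 20.1 to 20.4, ratio 0.844) and Errfi1 (45.3 against 53.5 to 54.4, ratio 0.898). It remained above all uninjured libraries for Zbtb16 and not for Errfi1. Fkbp5 and Zbtb16 were lower in the glia-rich wells of 10 of 12 mice with both kinds of well, unlike in the 2 replicates 3 at 3d. The part of the well make-up in these values was not tested.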

How the results depend on the processing

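In whole DRG, 5 members were called. The count was 4 at a threshold of 0.05, 7 with DESeq2 or without the filter (Sgk1 and Ddit4 added), 6 with the replicate block (those added, Cdkn1a lost) and 2 to 5 when each library was left out (2 without uninjured replicate 2 or 3 or SCI replicate 2, 3 without SCI replicate 1), and no log2 value changed sign. The other targets called numbered 6 to 12 on leaving out a library, an alternative added after seeing the data. Against naive mice, DESeq2 called 3 and 2 members after SNI at 1d and 3d and 2 and 1 after SCI, and 2 in each comparison of SNI with SCI, where edgeR called 0, while DESeq2 called 3.63 to 8.71% of all genes. Without the glia-rich wells 3 were called in SNI 1d, 2 in SNI 3d and 1 in SNI 1d against SCI 1d. Leaving out each mouse gave 0 to 1 in these 3 comparisons, 0 to 0 in the other sorted ones and 6 to 8 in naive neurons against whole DRG, where 7 were called with all mice. There, Nr3c1 turned to -1.03 with library totals as the only scaling. Causes were not tested.

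Counts of all genes called moved more. From 408, whole DRG ran from 127 (replicate block) to 929 (DESeq2) and 104 to 640 on leaving out a library. SNI 1d ran from 0 to 1463 around 122, SNI 3d from 0 to 2048 around 104, SCI 1d from 1 to 1072 around 11, SCI 3d from 0 to 1094 around 12, SNI against SCI from 0 to 1081 at 1d and 0 to 853 at 3d around 0, and naive neurons against whole DRG from 4521 to 10363 around 5842. With the replicate block, whose numbers were not taken as pairs, 0 members were called in any sorted comparison. Of 2240 recomputed log2 values of members, 2215 moved by less than 1 SD between replicates, 24 by more, and 1, that of Nr3c1, was called with the opposite sign. The sign of a value that was not called changed in 133, of which 44 in SCI 3d, 25 in SNI 1d against SCI 1d and 0 in whole DRG. The effect of depth was not tested.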
